A study of Mus musculus with 2 samples.

Results

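The odorant receptor (Olfr) genes of mouse chromosome 19 form 1 genomic cluster, and their transcript levels were described in the olfactory epithelium, the sensory tissue of the nose. Members were the entries of the deposited receptor table with a chromosome 19 locus in build mm9, except Olfr1440, which left 60 of the 1112 entries. Members were chosen by position, with Olfr1440 left out by name, and the rule uses no measured level. RNA from this tissue had been sequenced in 2 samples of adult C57BL/6 mice, both titled and genotyped as wild type, although the description of the second names it 3bko, a term not explained in the sources used here. The table names its 2 samples wt and 3bko in every row and holds 1 value per gene, which is tied to neither of them. Whether that value comes from wild-type tissue alone is not known. All levels below are therefore the authors' single FPKM values (fragments per kilobase of a gene's model, corrected for library size), without replicates, and no test could be run on any difference. Depth is unknown. The table lists Olfr genes only, and 0 of 16 looked-for markers of olfactory neurons, basal cells, supporting cells and respiratory epithelium are in it, so the tissue could not be checked.

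Odorant receptors are G protein-coupled receptors on the cilia of olfactory sensory neurons. Each neuron settles on a single receptor allele, so the level of a receptor in whole tissue depends on how many neurons chose it and on how much RNA each of them holds. These contributions cannot be told apart in bulk RNA. Receptor genes arose largely by tandem duplication, and neighbours in a cluster are often close relatives. The MOR names group mouse receptors into families by protein sequence. All 60 members belong to families numbered above those of the fish-like class I receptors and are class II receptors.

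The members span 2092 kb, from Olfr1417 at chr19:11902567-11903514 to Olfr1505 at chr19:13993512-13994462 (mm9), with a median distance of 22.1 kb between neighbours. They fall into 8 MOR families. From the first gene on, these are 4 MOR266 genes, 6 MOR239 genes, a stretch of 6 MOR214 genes flanked by the MOR215 genes Olfr76 and Olfr1441, then 30 MOR202 genes, another 4 MOR266 genes, the MOR127 gene Olfr1496, and 4 MOR212 genes interleaved with 3 MOR211 genes. The widest interval without a member, 251 kb between Olfr1441 and Olfr1442, holds other protein-coding genes in GENCODE M21, among them Mpeg1, Dtx4, Fam111a and Glyat. Intervals of 178 kb after Olfr1443, with Cntf and Zfp91, and of 139 kb after Olfr1420, with Patl1 and Osbp, also hold genes that are not receptors. GENCODE M21 annotates 91 Olfr genes on this chromosome. Of these, 30 have no entry in the table and were not analysed here, including 22 unprocessed pseudogenes and 3 polymorphic pseudogenes.

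The members covered a wide range of levels. The median member had an FPKM of 1.46 and the quartiles were 0.304 and 3.86, against a median of 1.08 and quartiles of 0.386 and 2.98 over the 1052 other entries. An FPKM of 1 or more was listed for 36 members (60%), against 52.1% of the other entries, and an FPKM of 5 or more for 12 members (20%), against 13.97%. At the lower end, 15 members (25%) had the status NOTEST, against 17.9% of the other entries. The highest NOTEST member had an FPKM of 0.324, and 0.140 was the lowest level with the status OK. Olfr262 was the only member listed at 0.

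The cluster stood in the middle of the receptor clusters by level and near their top by spread. Among the 21 clusters of at least 10 entries, its median ranked 10. The standard deviation of log2(FPKM + 0.1) over its genes, 2.05, ranked 2. A chromosome 7 cluster of 15 entries was ahead of it by less than the precision printed. Without the MOR239 genes the standard deviation was 1.88, below the 1.96 of the chromosome 14 cluster, which ranked 5. The share of genes at an FPKM of 5 or more ranked 7. By number the members were 5.40% of the table, and they held 5.98% of its summed FPKM. Without the 6 MOR239 genes, the other 54 members were 4.86% of the table and held 3.71%, and 12.96% of them reached an FPKM of 5. On the log2(FPKM + 0.1) scale the median of all 60 members was 0.41 above that of the other entries, and this difference was 0.06 without the 6 MOR239 genes. It was 0.13 among entries with at least 80% of their coding 50-mers found in no other Olfr transcript. It was 0.24 against the 929 other entries whose MOR family number is above 42 or not given, which leaves out the class I families. Those 929 had a median FPKM of 1.22, with 56.0% at 1 or more and 15.5% at 5 or more.

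**Figure D1:**
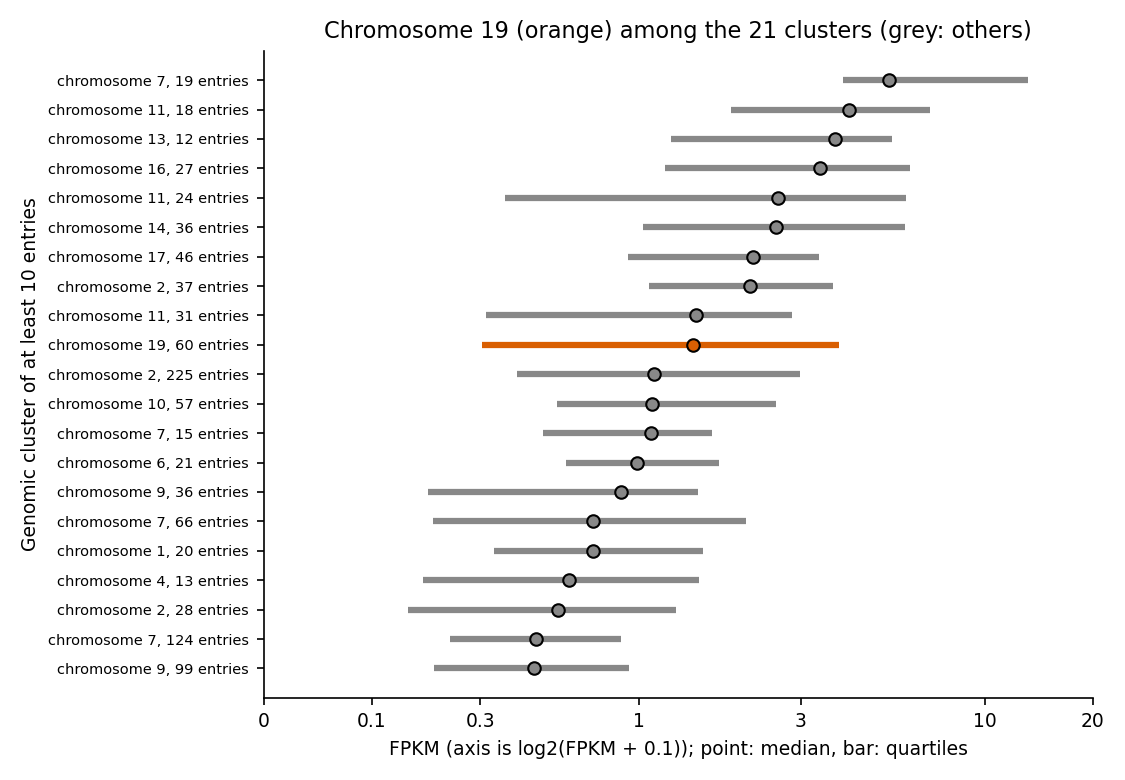
Median (point) and quartiles (bar) of FPKM in each genomic cluster of at least 10 Olfr entries, on a log2(FPKM + 0.1) axis, with the chromosome 19 members in orange and the other clusters in grey. Chromosome 19 ranks 10 of 21 by median, and its quartiles run from 0.304 to 3.86.

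A few genes held much of the signal. The highest 8 members held 50% of the members' summed FPKM, and the highest 12 held 64.2%. Olfr1427 (chr19:12173192-12174127) had the highest level, an FPKM of 18.0, and Olfr1428 (chr19:12183090-12184034), its direct neighbour, had 17.8. Olfr1463 (chr19:13308742-13309674) followed at 15.5, then Olfr1425 (chr19:12148185-12149120) at 10.5 and Olfr1426 (chr19:12162100-12166337) at 10.3. Of all 1112 entries, Olfr1427 ranked 15 and Olfr1428 ranked 16. The 5 genes above were the only members among the 100 highest entries, a count near the members' share of the table, 5.40%. All of them except Olfr1463 belong to MOR239. The next members were Olfr1442 at 6.70, Olfr1420 at 6.62, Olfr1423 at 6.45, Olfr1484 at 5.74, Olfr1477 at 5.39, Olfr1494 at 5.39 and Olfr235 at 5.05. At the other end, above Olfr262, stood Olfr1445 at 0.0123, Olfr1462 at 0.0222, Olfr1499 at 0.0263, Olfr1453 at 0.0488, Olfr1451 at 0.0705, Olfr1465 at 0.0729 and Olfr1475 at 0.109. Of these 8 lowest members, 6 are MOR202 genes, a family that makes up 50% of all members.

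Along the chromosome, levels were highest near the start of the cluster. The first 10 members, Olfr1417 to Olfr1428, had a median FPKM of 6.54, and none of them was below 3.83. The next 10, Olfr76 to Olfr1443, had a median of 1.74, and the 10 from Olfr1444 to Olfr1454 had the lowest median, 0.479, with no gene above 2.08. The medians of the following blocks of 10 were 0.613 from Olfr1457 to Olfr1471, 1.23 from Olfr1472 to Olfr1491 and 0.971 from Olfr1494 to Olfr1505. Divided at the 251 kb interval, the 42 members after it had a median of 1.00 and the 18 before it had 3.98. Over the 60 members, Spearman's rho of level with position was -0.36 and Pearson's r was -0.36, given as a description of genes that share a chromosome and often a family. Within the 30 MOR202 genes, rho with position was 0.04.

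**Figure D2:**
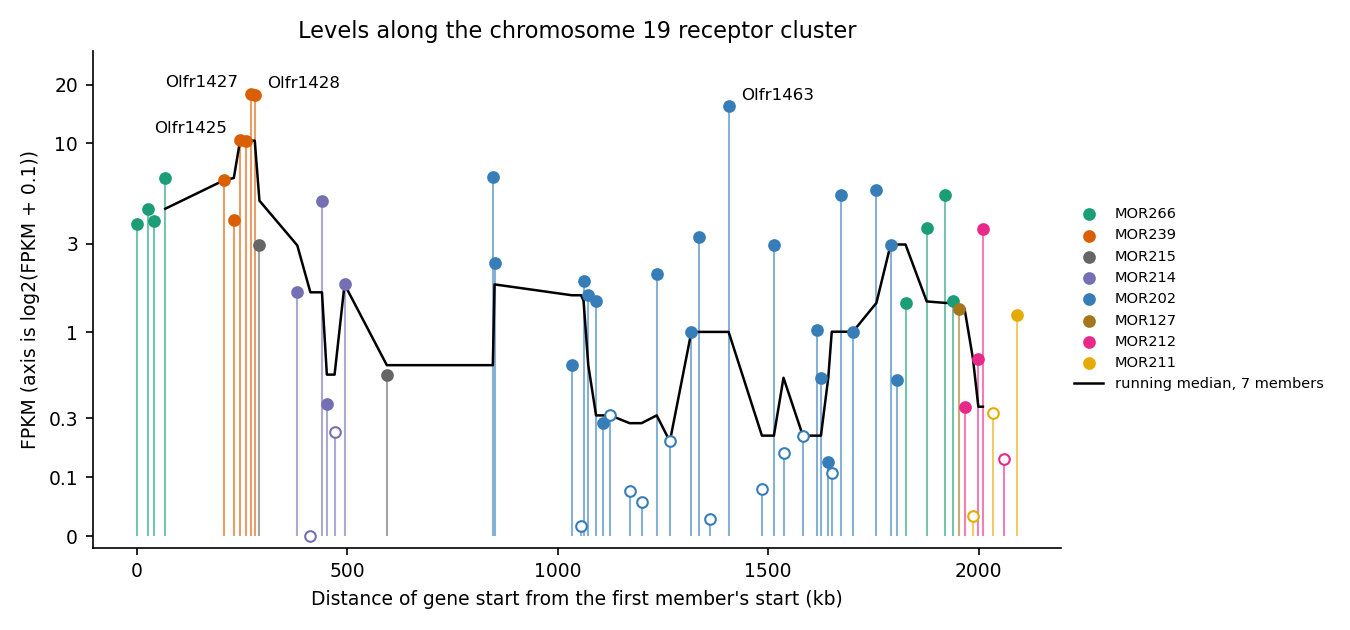
FPKM of each of the 60 members (log2(FPKM + 0.1) axis) against the distance of its start from that of Olfr1417 in kb, coloured by MOR family. Open points have the status NOTEST, and the black line is the running median of 7 members. The first 10 members all lie at 3.83 or more, and Olfr1463 at 15.5 stands between 2 members below 0.1.

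Neighbouring members often differed by several fold. Neighbours are members that follow each other by position, and Olfr1440 or Olfr genes without an entry may lie between them. The median absolute difference between neighbours was 1.66 on the log2(FPKM + 0.1) scale, a factor of 3.17, and 24 of 59 neighbouring pairs (40.7%) differed by more than 4-fold. Over all 1770 pairs of members the median was 2.08, with 51.5% beyond 4-fold. Between neighbours, sharing a family made no clear difference. The median step was 1.67 over 46 pairs of neighbours from the same family and 1.66 over 13 pairs from different families. Which of these was larger changed with the entries and the pseudocount used. Of the 46 pairs, 29 lie within MOR202, with a median step of 1.86, so this family weighs most in the comparison. The other families were unlike each other. The largest step between neighbours was 1.36 within MOR239 and 1.80 within MOR266, but 5.69 within MOR214. Over all pairs of members, near or far, the median difference was 1.85 within a family (47.5% beyond 4-fold) and 2.18 between families (53.1%). The largest steps lay around Olfr1463. Its FPKM of 15.5 stood between Olfr1462 at 0.0222, which lies 42.7 kb before it, and Olfr1465 at 0.0729, 78.2 kb after it. Olfr1461, before Olfr1462, had 3.25. All 4 are MOR202 genes. The other steps among the 6 largest were between Olfr262 at 0 and Olfr235 at 5.05, between Olfr1475 at 0.109 and Olfr1477 at 5.39, and between Olfr1445 at 0.0123 and Olfr1446 at 1.91, which are 4.82 kb apart. Spearman's rho between the levels of neighbours was 0.24 over the 59 pairs and -0.17 over the 29 neighbouring MOR202 pairs.

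Levels differed between the families. Among the 6 families of at least 3 members, the median FPKM was 10.4 in MOR239, 3.89 in MOR266, 1.01 in MOR214, 0.823 in MOR202, 0.531 in MOR212 and 0.324 in MOR211. Every gene of MOR239 and MOR266 reached an FPKM of 1, against 3 of 6 in MOR214, 15 of 30 in MOR202, 1 of 4 in MOR212 and 1 of 3 in MOR211. Of all entries, 52.5% reached it. MOR239 and MOR266 were also even in level, with a highest gene 4.48 and 4.57 times the lowest. In MOR202 the highest gene had 1260 times the level of the lowest, in MOR211 it had 47.0 times and in MOR212 24.3 times. These ratios rest on lowest genes with the status NOTEST, namely Olfr1445 at 0.0123, Olfr1499 at 0.0263 and Olfr1504 at 0.147. MOR239 and MOR266 have no NOTEST gene. MOR202 also has 30 genes, against 6 in MOR239 and 8 in MOR266. Family and position are largely shared here, since 6 of the 8 families have no other entries in the table apart from Olfr1440, and they cannot be told apart.

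**Figure D3:**
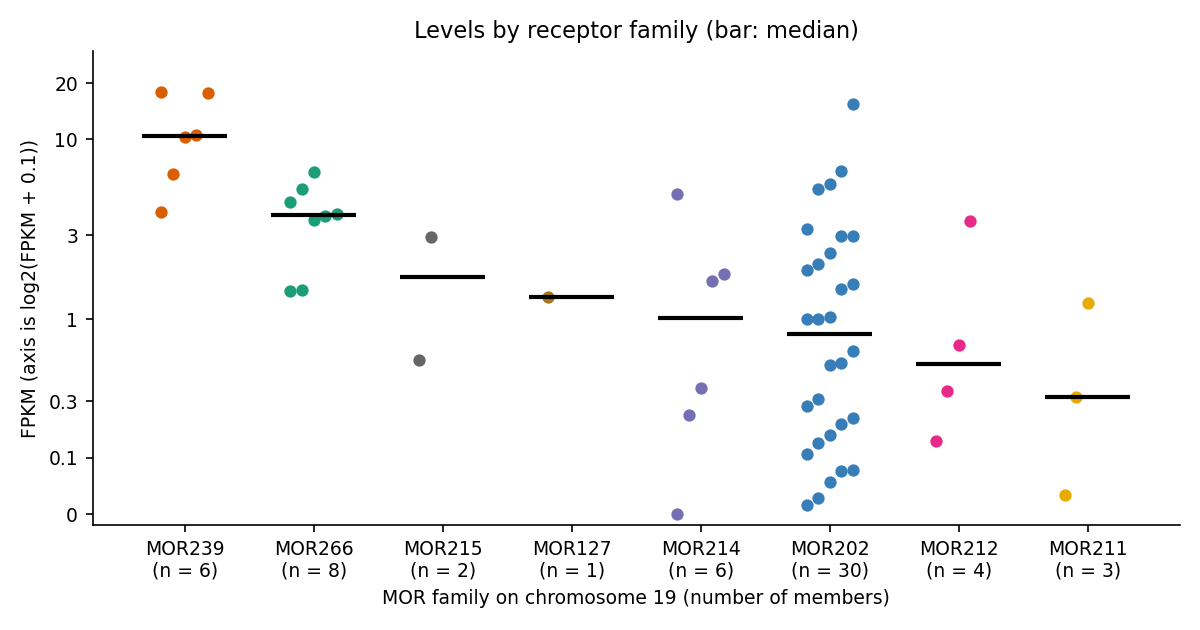
FPKM of the members by MOR family (log2(FPKM + 0.1) axis), ordered by family median (black bar), with 1 point per gene. MOR239 and MOR266 have no gene below 1, while MOR202 runs from 0.0123 to 15.5.

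The 6 MOR239 genes lie side by side within chr19:12110298-12184034, all on the minus strand. They held 37.9% of the members' summed FPKM as 10% of the members. From the first to the last they had 6.45 (Olfr1423), 4.02 (Olfr1424), 10.5 (Olfr1425), 10.3 (Olfr1426), 18.0 (Olfr1427) and 17.8 (Olfr1428). Their median ranked 3 among 122 MOR families of at least 3 entries when a single MOR239 entry on another chromosome, at 2.37, was counted with them. Predicted proteins of MOR239 pairs were 66.8% to 94.9% identical. Reads may be shared between the middle genes, because only 32.0% of the coding 50-mers were unique in Olfr1425, 45.0% in Olfr1426 and 60.6% in Olfr1424. They were 97.4% unique in Olfr1427 and 100% in Olfr1428, so the 2 highest genes have little coding sequence in common with other receptors at this length. The first 50 coding bases are shown to let the 2 highest genes be compared with less expressed relatives, with bases that differ from Olfr1427 in capitals.
Olfr1427: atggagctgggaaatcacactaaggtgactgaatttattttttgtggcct
Olfr1428: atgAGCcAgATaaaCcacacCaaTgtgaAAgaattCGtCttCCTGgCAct
Olfr1423: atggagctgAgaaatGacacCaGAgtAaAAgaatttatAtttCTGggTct
Olfr1424: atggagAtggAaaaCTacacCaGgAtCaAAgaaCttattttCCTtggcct
In this window Olfr1428 differs from Olfr1427 at 20 of 50 bases, more than Olfr1423 (13) or Olfr1424 (14), while its level of 17.8 is nearest to that of Olfr1427. These windows come from RefSeq on GRCm38.p6, minus strand, with Olfr1427 at chr19:12099588-12099637 and Olfr1428 at chr19:12109495-12109544 of that build.

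MOR266 is split between both ends of the cluster, with 30 MOR202 genes and several smaller families in between. The distal genes Olfr1490, Olfr1491, Olfr1494 and Olfr1495 had an FPKM of 1.45, 3.66, 5.39 and 1.48, with a median of 2.57. The proximal genes Olfr1417, Olfr1418, Olfr1419 and Olfr1420 had 3.83, 4.58, 3.94 and 6.62, with a median of 4.26. The ranges of these groups overlap. Protein identity over all 28 MOR266 pairs ran from 47.2% to 96.5%, the widest range of the families, and all 8 genes nevertheless lay between 1.45 and 6.62. Only 40.2% of the coding 50-mers of Olfr1417 and 40.8% of those of Olfr1418 were unique, so the division of reads between these neighbours is uncertain.

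MOR214 ran from 0 to 5.05. Its highest gene was Olfr235, a receptor reported to respond to musk odorants, at 5.05. It was followed by Olfr1437 at 1.83 and Olfr1431 at 1.65. A joint entry for Olfr1433 and Olfr1434, which RefSeq treats as names of the same gene, had 0.369, Olfr1436 had 0.239 and Olfr262 was listed at 0. Reads may be shared here too, since the median share of unique coding 50-mers was 57.6%. Of the MOR215 genes, Olfr76 had 2.95 and Olfr1441 had 0.567.

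MOR202 is the largest family of the cluster. Of its 30 genes, which lie within chr19:12748669-13708544, 15 reached an FPKM of 1, 4 reached 5 and 10 had the status NOTEST. These are 50%, 13.3% and 33.3% of the family, against 52.5%, 14.3% and 18.3% of all entries. Olfr1463 at 15.5 was followed by Olfr1442 at 6.70, Olfr1484 at 5.74 and Olfr1477 at 5.39. The next were Olfr1461 at 3.25, Olfr1487 at 2.98 and Olfr1466 at 2.97. The family made up 50% of the members and 33.04% of their summed FPKM. Its proteins were 58.3% to 97.5% identical, with a median of 65.3%. The coding 50-mers of Olfr1463 were 98.1% unique.

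At the distal end, MOR212 had Olfr1501 at 3.57, Olfr1500 at 0.704, Olfr1497 at 0.357 and Olfr1504 at 0.147. The interleaved MOR211 genes had 1.24 (Olfr1505), 0.324 (Olfr1502) and 0.0263 (Olfr1499). The MOR127 gene Olfr1496 had 1.35, against a median of 0.562 for the 4 entries of its family on other chromosomes.

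Close relatives were compared to see whether similar receptors had similar levels. Over 503 pairs within a family, 435 of them in MOR202, Spearman's rho between protein identity and the absolute level difference was 0.05. Among the 19 pairs with at least 90% identity, which involve 27 members, 8 differed by less than 2-fold and 5 (26.3%) by more than 4-fold on the log2(FPKM + 0.1) scale, with a median difference of 1.36. Over all 503 pairs, 47.5% differed by more than 4-fold and the median difference was 1.85. This share did not move in 1 direction with identity. It was 25% of 4 pairs below 50% identity, 17.1% of 35 pairs at 50% to 60% and 49.0% of 310 pairs at 60% to 70%. It was 62% of 100 pairs at 70% to 80% and 33.3% of 54 pairs at 80% or more. MOR266 pairs reach down to 47.2% identity and MOR202 pairs only to 58.3%, so these ranges also differ in their mix of families. The 6 most identical pairs included some at nearly equal level. Olfr1484 at 5.74 and Olfr1477 at 5.39 were 94.6% identical, and Olfr1418 at 4.58 and Olfr1417 at 3.83 were 96.5% identical. Others were apart. Olfr1425 at 10.5 and Olfr1424 at 4.02 were 94.9% identical, and Olfr1505 at 1.24 and Olfr1502 at 0.324 were 95.6% identical. In every gene of the 6 most identical pairs, fewer than 80% of the coding 50-mers were unique. The split of reads within these pairs is therefore uncertain. Olfr1477 and Olfr1484 also each overlap an annotated pseudogene on the same strand. Whether shared reads bring the levels of a pair closer was not tested.

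**Figure D4:**
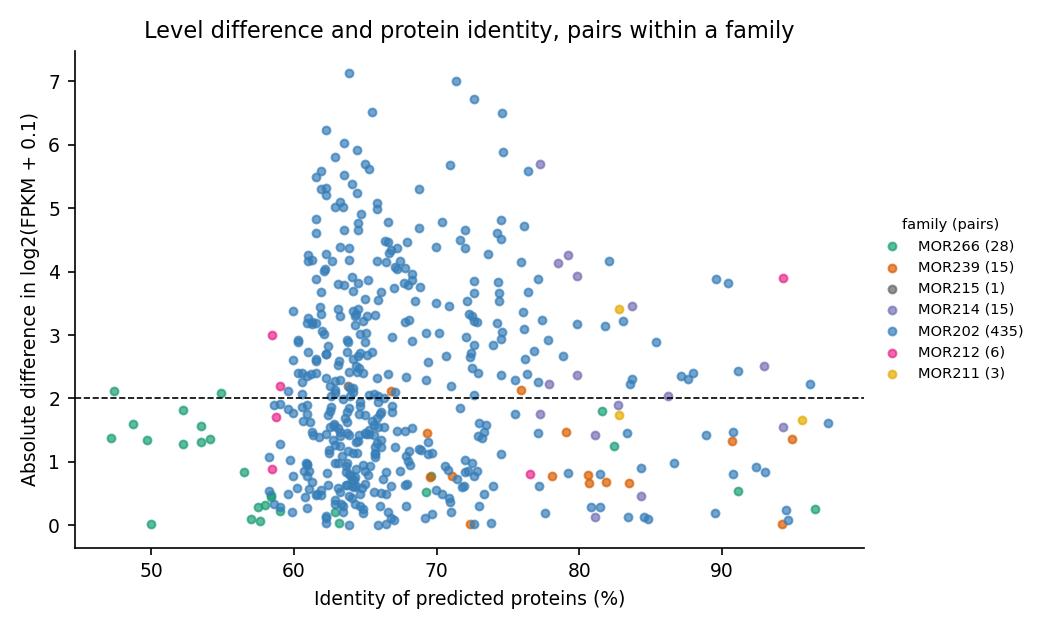
Absolute difference in log2(FPKM + 0.1) against the identity of predicted proteins for the 503 pairs within a family, coloured by family. The dashed line marks a 4-fold difference. Pairs above 90% identity lie on both sides of it.

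The most identical pair of the cluster, Olfr1472 and Olfr1475, shares 97.5% of its residues. Olfr1472 had an FPKM of 0.542 and Olfr1475, which has the status NOTEST, had 0.109, a 4.98-fold difference. On the log2(FPKM + 0.1) scale the pair differed by 1.62, which is below 4-fold. A second pair, Olfr1471 and Olfr1474 (96.2% identical), is interleaved with it in the order Olfr1471, Olfr1472, Olfr1474, Olfr1475. Their strands alternate, and the starts of the partners are 25.96 kb apart in this pair and 25.7 kb in the first. In both pairs the gene nearer the start of the chromosome had the higher level, with 1.03 for Olfr1471 and 0.140 for Olfr1474, a 7.34-fold difference. Between 63.6% and 73.8% of the coding 50-mers of these 4 genes were unique, so the split of reads within each pair is uncertain. A larger difference between close relatives was that of Olfr1501 at 3.57 and Olfr1504 at 0.147, the latter with the status NOTEST. It is 24.3-fold at 94.3% identity and with 93.0% unique 50-mers in each. Olfr1448 at 1.49 and Olfr1445 at 0.0123, also NOTEST, differed 121-fold at 90.4% identity, with 82.6% unique 50-mers in each. Both of these pairs were singled out after their values were seen. The first 50 coding bases are shown for the pairs above except Olfr1445 and Olfr1448. They are also shown for Olfr1417 and Olfr1418, whose levels are close. Bases that differ from the partner are in capitals, so that close relatives of unlike and of like level can be compared.
Olfr1472: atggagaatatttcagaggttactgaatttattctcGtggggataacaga
Olfr1475: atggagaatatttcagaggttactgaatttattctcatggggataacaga
Olfr1471: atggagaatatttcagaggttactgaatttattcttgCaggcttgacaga
Olfr1474: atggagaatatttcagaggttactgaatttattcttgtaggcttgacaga
Olfr1501: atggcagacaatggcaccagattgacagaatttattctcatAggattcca
Olfr1504: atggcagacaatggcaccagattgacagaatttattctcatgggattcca
Olfr1417: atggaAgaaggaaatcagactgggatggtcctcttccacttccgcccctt
Olfr1418: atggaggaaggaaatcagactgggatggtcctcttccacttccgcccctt
Each pair shown differs at 1 of these 50 bases, including Olfr1417 and Olfr1418, with levels of 3.83 and 4.58. The windows are RefSeq's on GRCm38.p6. Olfr1472 (chr19:13454466-13454515), Olfr1475 (chr19:13480147-13480196), Olfr1501 (chr19:13839122-13839171), Olfr1504 (chr19:13888159-13888208), Olfr1417 (chr19:11828975-11829024) and Olfr1418 (chr19:11855902-11855951) are on the minus strand, and Olfr1471 (chr19:13445014-13445063) and Olfr1474 (chr19:13470972-13471021) are on the plus strand.

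Members with simple annotated transcripts had low levels. The longest coding transcript in GENCODE M21 has 1 exon for 6 members, namely Olfr262, Olfr1436, Olfr1445, Olfr1453, Olfr1475 and Olfr1502. All 6 had the status NOTEST, with a median FPKM of 0.0789 and a highest value of 0.324. The median was 1.40 for 24 members with 2 exons and 2.02 for 30 members with 3 or more. Of these 30, 2 had the status NOTEST (6.67%), against 5.86% of the other entries with 3 or more exons. The medians for 1, 2 and 3 or more exons are each close to that of the other entries with the same exon number, 0.0892, 1.04 and 1.73. Apart from Olfr1445, the single-exon members have no annotated untranslated region (UTR) on either side. Annotated transcripts depend on the RNA evidence behind them, and whether that contributes to the relation was not tested.

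A longer annotated 5' UTR went with a higher level. Over the 60 members Spearman's rho was 0.51 and Pearson's r was 0.50, against 0.44 and 0.34 over 1034 other entries. Without MOR239 rho was 0.43 over 54 members, and within MOR202 it was 0.29 over 30. The median 5' UTR length was 699 nt in MOR239 and 583 nt in MOR266, 520 nt in MOR211, 321 nt in MOR212, 244 nt in MOR202 and 135 nt in MOR214. The order of the families differs from that by level, since MOR211 and MOR212 have the lowest median levels and longer 5' UTRs than MOR202 and MOR214. The 5' UTR of Olfr1427 was the longest, at 1710 nt, yet that of Olfr1428 was 298 nt and that of Olfr1463 only 166 nt. These genes are families of relatives and not independent points.

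**Figure D5:**
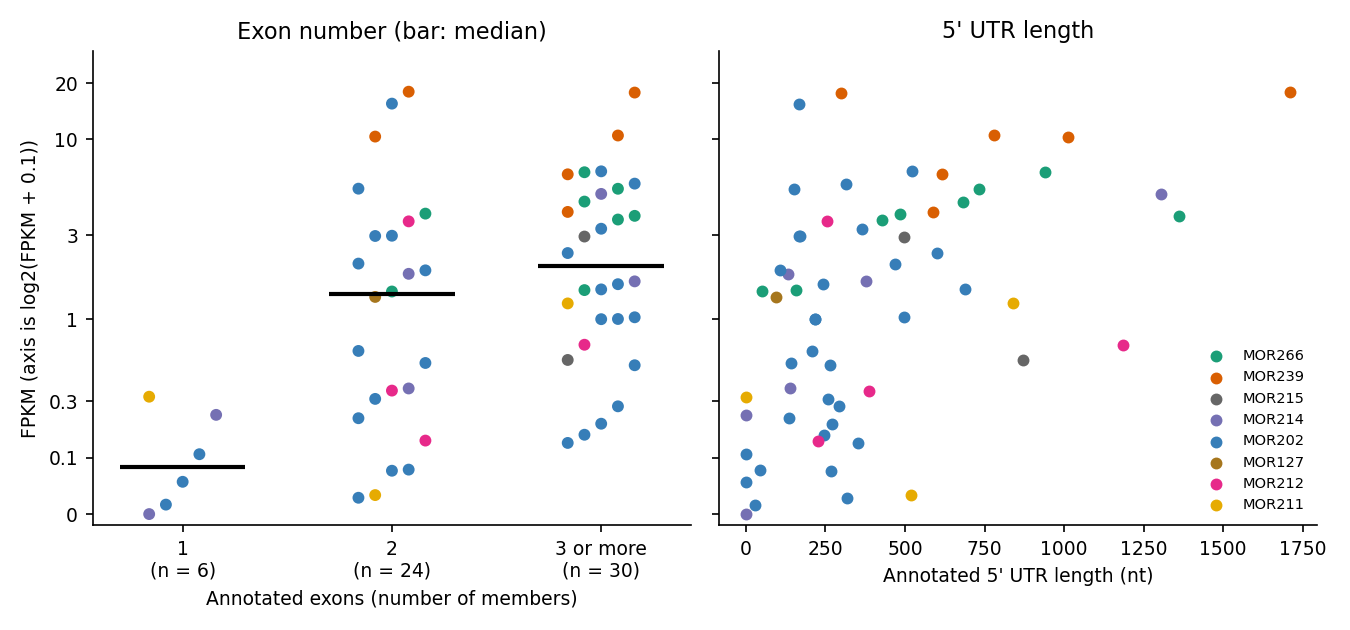
FPKM of the members (log2(FPKM + 0.1) axis) by number of annotated exons (left, bar: median) and by annotated 5' UTR length in nt (right), coloured by MOR family. All 6 single-exon members lie at 0.324 or below.

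Coding GC content also followed level in this cluster, with a rho of 0.41 over the 60 members, against 0.04 over the 1034 other entries. Without MOR239 rho was 0.25 over 54 members, and within MOR202, the only family examined by itself, it was -0.08. Median coding GC was 49.6% in MOR266, 47.6% in MOR239, 44.8% in MOR212, 43.9% in MOR211, 42.6% in MOR214 and 41.5% in MOR202. By strand, the median FPKM was 1.59 for the 27 members on the minus strand and 1.35 for the 33 on the plus strand.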

How the data were processed

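The deposited table holds FPKM values made by the authors, 1 per Olfr entry, per the file headers. TopHat2, Bowtie2, Cuffdiff and build mm9 are named in the submitters' processing notes, without versions. Neither the gene annotation nor the handling of reads that match several genes is stated in the labels or the file. For 51 of the 60 members the locus length equals the GENCODE coding length, with or without a stop codon, so their FPKM covers coding sequence. Starts count from 0 in the table and 1 was added. mm9 coordinates come from the table, and GRCm38 sources were used only for names, transcript features and sequences.

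MOR families came from RefSeq synonyms (60 of 60 members matched, the joint entry by Olfr1434). GENCODE M21 gave exons, untranslated regions and coding sequences. Proteins translated from these were aligned globally (BLOSUM62, gap penalties 11 and 1, Biopython 1.88), and identity is over aligned residues. A coding 50-mer was unique if no other Olfr gene's transcript held it. A cluster is a stretch of receptor loci in which no interval reaches 1 Mb. Log values used a pseudocount of 0.1, which understates differences of low genes. With 2 samples genotyped as 1 group and 1 value per gene, no comparison over samples, test, interval or detection limit was possible. Folds are ratios of FPKM unless the log scale is named.

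All 60 members could be named; the highest 12, the lowest 8, the extremes of each family, the 6 largest neighbour steps and the 6 most identical pairs were given by rule. Coding starts, in place of the planned proteins, are printed for 4 MOR239 genes and for 4 pairs of close relatives, of which Olfr1501 and Olfr1504 were chosen after their values were seen. RefSeq start windows were found for 56 members, and in 46 the last 50 bases are the coding start. The members, lists and rules were chosen with earlier results of these data known. Functions were tested on simulated data. Alternatives covered filters, the pseudocount, shared sequence, family definition and cluster intervals.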

Additional observations from a re-analysis of the deposited data

How the results depend on the processing

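None of these values has a replicate error, so any change at 3 significant digits counts as a change, except for counts of members, which are judged by a factor of 1.5. No paired analysis was possible because there is 1 group of samples and a single FPKM column, and values without replicate 1 or 2 were not run for the same reason. The alternatives without MOR239, with Olfr1440, without the joint entry and against other entries without class I families were chosen after seeing the data. The cause of the changes below was not tested beyond the entries each alternative leaves out.

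The members' median FPKM of 1.46 was 1.65 among entries at FPKM 0.1 or more, 2.39 with status OK, 1.24 for loci under 1000 bp, 1.18 among entries with at least 80% unique 50-mers, 1.13 without MOR239 and 1.48 both with Olfr1440 and without the joint entry. In the same order, the difference in median log2 from the other entries was 0.40, 0.64, 0.25, 0.13, 0.063, 0.42 and 0.42. It was 0.41 without pseudogenes, 0.25 with a pseudocount of 1, 0.44 with 0.01 and 0.24 against other entries without class I families, and stayed above 0 in all 11 alternatives. The number of members at FPKM 1 or more, 36, became 53 at FPKM 0.1, 12 at FPKM 5, 20 of 38 among entries with unique 50-mers, 30 for short loci, 30 without MOR239 and 37 with Olfr1440. It was 36 in the other 4 alternatives.

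The distance of 10.1 FPKM between the highest and lowest family medians was 9.87 at FPKM 0.1 or more, 9.69 with status OK, 17.4 with unique 50-mers and 3.56 without MOR239, whose genes set it. The median step between neighbours (1.66) was 1.44 at FPKM 0.1 or more and with status OK, 1.79 for short loci, 1.86 with unique 50-mers, 0.79 with a pseudocount of 1, 1.88 with 0.01, 1.64 with runs divided at 0.25 Mb, 1.79 without MOR239 and 1.70 both with Olfr1440 and without the joint entry.

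The difference in step between neighbours of the same and of different families was 0.01 and had no stable sign. It was -0.10 at FPKM 0.1 or more, -0.026 with status OK, -0.41 with unique 50-mers and -0.012 with a pseudocount of 0.01, but 0.14 for short loci, 0.21 with a pseudocount of 1, 0.20 without MOR239 and 0.075 both with Olfr1440 and without the joint entry. The table gives no depth, and the counting error of the low values is therefore not known.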
